A study of Homo sapiens with 8 samples.

Results

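Spliceosomal small nuclear RNAs (snRNAs) and their genomic copies were followed through selective ribosome profiling of 2 chaperones in U2OS cells, a human osteosarcoma line. The members were the genes that GENCODE 44 types as snRNA, with a symbol beginning RNU and a digit or RNVU1, and with at least 50 counts summed over the 8 libraries. This rule gave 175 members, out of 1828 genes with such symbols and 60664 gene identifiers in the count tables. They comprised 66 U1, 20 U2, 12 U4, 9 U5 and 64 U6 members, 3 members of the minor spliceosome and 1 U7 copy. By symbol, 25 were annotated genes or variant genes and 150 were copies, whose symbols end in P.

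Selective ribosome profiling sequences ribosome-protected fragments (RPFs) from all ribosomes (input) and from the ribosomes that come down with a tagged chaperone (pulldown). TRiC is the cytosolic chaperonin that folds actin and tubulin, and prefoldin (PFD) is the cochaperone that hands substrates to it. TRiC was tagged in CCT4-Halo cells, with a HaloTag integrated into a loop of the CCT4 subunit by CRISPR–Cas9, and PFD in PFDN4-Halo cells, with a HaloTag on PFD subunit 4. Each line came from a single clone, so line and clone cannot be told apart. Input and pulldown of each line made 4 groups, with 2 biological replicates each. Cells of all groups were treated with cycloheximide (100 µg/ml for 1 min) and with the crosslinker DSP (2 mM for 30 min), and lysates were digested with RNase I before the pulldown through the Halo tag.

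U1, U2, U4, U5 and U6 are the RNA cores of the spliceosome, the nuclear machine that removes introns. U1 pairs with the 5′ splice site, U2 with the branch point, U4 holds U6 inactive by base pairing until activation, and U5 aligns the exon ends. U4atac takes the place of U4 in the minor spliceosome, and U7 serves the 3′ end processing of histone mRNA, not splicing. U1, U2, U4, U5 and U4atac are made by RNA polymerase II, exported, loaded with a ring of Sm proteins in the cytoplasm and returned to the nucleus, whereas U6 is made by RNA polymerase III and binds LSm proteins. snRNAs are not translated, and the genome holds many copies of each.

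A count here was a read that aligned to 1 place in the genome after the authors had removed reads matching a library of non-coding RNAs. The counts therefore describe what was left after that removal and not the abundance of the snRNAs. Library totals ran from 9523128 to 32637658 counts. The mesenchymal markers VIM, FN1, SPARC, COL1A1 and CDH2 were present in every library, whereas KRT20, PTPRC, CD3E, ALB and CDH1 stayed at or below 0.75 CPM (counts per 1000000 counts of the library, after TMM scaling over the 8 libraries). EPCAM, an epithelial marker, ran from 0.105 to 18.3 CPM. Each group is a bulk sample, in which fewer cells of a type and less RNA per cell cannot be told apart.

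The most counted member was RNU4-2, which held 332403 of the 478292 member counts, or 69.5% (exact 95% interval 69.4 to 69.6, counting error only). Its share ran from 44.2% in PFD input 1 to 80.9% in TRiC pulldown 2. RNU4-2 lies at chr12:120291763-120291903 and its sister gene RNU4-1 at chr12:120293097-120293237, both on the minus strand of hg38 and in no other annotated gene. The U4 pair is shown because reads of these genes can be told apart at only 4 positions, which are in capitals (C37T, G88A, C99A and C113T, with the RNU4-1 base first and positions counted from the 5′ end):
RNU4-1: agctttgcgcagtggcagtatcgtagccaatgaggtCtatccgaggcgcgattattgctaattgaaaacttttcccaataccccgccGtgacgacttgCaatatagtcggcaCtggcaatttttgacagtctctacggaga
RNU4-2: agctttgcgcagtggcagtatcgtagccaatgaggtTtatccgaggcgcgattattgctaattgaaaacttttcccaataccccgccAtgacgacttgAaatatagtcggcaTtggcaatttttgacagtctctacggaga
RNU4ATAC (chr2:121530881-121531007, plus strand) is the only working gene of the minor spliceosome among the members, and its Sm site is in capitals:
RNU4ATAC: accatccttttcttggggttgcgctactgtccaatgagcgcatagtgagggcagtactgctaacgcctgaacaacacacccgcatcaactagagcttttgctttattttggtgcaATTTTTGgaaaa
These and all later sequences were read from hg38 at the GENCODE 44 coordinates, 5′ to 3′ as DNA letters.

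Several working snRNA genes were counted little or not at all. RNU2-1, RNU11, RNU12 and RNU5E-1 had 0 counts in all 8 libraries, which allows a level of up to 0.0163 CPM over the whole set (3 counts, counting error only). RNU6ATAC had 3 counts, RNU6-1 had 16, RNU6-9 had 32, RNU1-4 had 38, RNU6-7 had 41 and RNU5F-1 had 47, and none of these reached the threshold. Just inside it lay RNU6-49P, RNU4-52P and RNU6-2 with 50 counts each, and just outside lay RNU6-857P with 49 and RNU4-70P and RNU6-71P with 48. Uniqueness of sequence limits what such a table can hold. Of the 175 members, 13 had no window of 28 bases that occurs once in the genome, among them RNU1-1, RNU1-2, RNU1-3, RNVU1-18, RNVU1-29 and RNU6-2. RNU1-1, RNU1-2, RNU1-3, RNVU1-18, RNVU1-29 and the copies RNU1-27P and RNU1-28P are identical over 164 bases, so the division of counts among them is uncertain.

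The first comparison asked which snRNA members were over-represented on TRiC-bound ribosomes. In TRiC cells 50 members were higher and 5 were lower after the pulldown, by edgeR's quasi-likelihood test with a Benjamini-Hochberg adjusted p under 0.05 over all 17934 genes tested. Of all genes tested, 8.64% were higher and 10.6% lower. The counts were 3 and 0 when both lines were fitted jointly, 25 and 1 in a test of changes beyond 1.5-fold, and 31 higher without TRiC input 2. The members called higher included both U4 genes, RNU4ATAC, 12 annotated U1 genes, 19 U1 copies and 6 U2 copies. Of the 175 members 130 passed the filter on low counts, and a member that passed it only through its high group had to differ. Among the 72 members with at least 10 counts in every TRiC library, where that cannot occur, 36 were higher and 3 lower, against 11.2% and 12% of all genes so filtered. The median log2 fold change was 1.18 over the 130 members and 1.16 over the 72, and −0.003 over all genes tested. The value was above 0 for 103 of the 130, against 49.7% of all genes. Both pulldowns stood above both inputs for 81 members (29.3% of all genes) and below them for 12 (31.2%).

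Both U4 genes had both TRiC pulldowns above both inputs. RNU4-2 was at 830 and 812 CPM before the pulldown and at 2660 and 3670 CPM after it. The 2 inputs lay close together, and both pulldowns were far above them, with a log2 fold change of 1.95 (SE 0.10, edgeR adjusted p = 3.70e-10). RNU4-1 stood at 14 and 13.3 CPM in the inputs and at 126 CPM in each pulldown. Its log2 fold change of 3.21 (SE 0.10, edgeR adjusted p = 2.33e-13) was the larger of the pair, and its mean level rose 9.26-fold against 3.86-fold for RNU4-2. Per kilobase of gene, RNU4-2 still had the higher level in the pulldown, 22500 against 894 CPM per kb. Of the 12 U4 members 8 were tested, 4 were higher, and none was lower, with RNU4-10P at a log2 fold change of 1.65 and RNU4-17P at 2.98. With at least 10 counts in every TRiC library 3 of 5 were higher and none lower, with a median of 1.67. RNU4-17P was not among those 5, so its p is not read as support. RNU4ATAC, the minor spliceosome counterpart of U4, went from 11.5 and 10.6 CPM to 59.2 and 63.2 CPM. Its groups did not overlap, and the log2 fold change was 2.47 (SE 0.12, edgeR adjusted p = 1.05e-10). It lies in an intron of CLASP1-AS1 and opposite an intron of CLASP1, and the tables do not say which strand was counted.

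**Figure D1:**
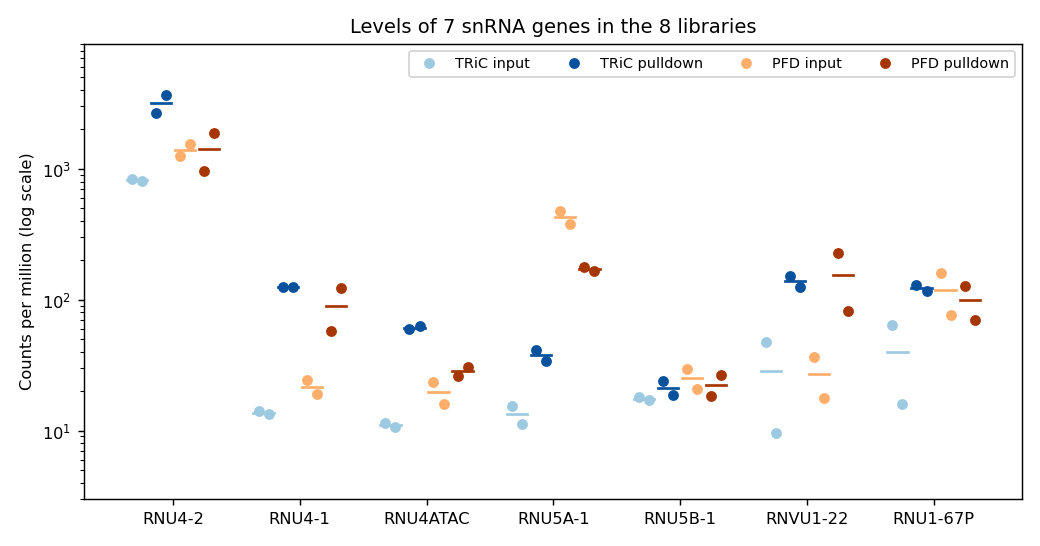
Level of 7 snRNA genes in each library, in CPM on a log axis; points are the 2 replicates of a group and bars their mean. In TRiC cells all 7 genes have both pulldowns above both inputs, and RNU5A-1 stands at 473 and 377 CPM in the PFD inputs against 15.5 and 11.2 CPM in the TRiC inputs.

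U1 supplied most of the calls. Of 66 U1 members 58 were tested, of which 31 were higher and 1 lower, with a median log2 fold change of 1.62. The shares to set beside the calls of any class are 8.64% higher and 10.6% lower over all genes tested. With at least 10 counts in every TRiC library 22 of 32 U1 members were higher and 1 lower, with a median of 1.58. The shares of all genes so filtered were 11.2% and 12%. Of the 17 annotated U1 genes tested, nearly all of them variant genes, 12 were higher and none lower. Of the 41 copies tested, 19 were higher and 1 lower. RNVU1-22, the most counted annotated U1 variant, was at 47.1 and 9.51 CPM in input and at 152 and 126 CPM in pulldown libraries; its log2 fold change was 2.30 (SE 0.37, edgeR adjusted p = 4.56e-04). RNU1-67P, the most counted U1 member, was at 64.1 and 15.9 CPM in input and at 129 and 116 CPM in pulldown libraries, with a log2 fold change of 1.62 (SE 0.33, edgeR adjusted p = 0.00271). For both, the inputs differed from each other several-fold while the pulldowns lay together. DESeq2 called neither, with adjusted p of 0.108 and 0.206. RNVU1-22 was at 3.88 without TRiC input 1 and at 1.56 without TRiC input 2, and RNU1-67P at 2.96 and 0.93. The summed level of the class, which includes both, was 274 CPM in TRiC input 1 and 88.0 CPM in TRiC input 2. RNVU1-2A, at 5.14 and 4.58 CPM, did not show this split. Without TRiC input 2, 31 of the 50 higher calls remained and the count of higher members was 31. Its part in the U1 result was not tested further.

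Other variant genes covered a range. RNVU1-29 (log2 fold change 3.37), RNVU1-3 (3.02), RNVU1-28 (2.74), RNVU1-17 (2.68), RNVU1-31 (2.61), RNVU1-18 (2.55), RNVU1-7 (2.54), RNVU1-15 (1.54) and RNVU1-2A (1.17) were higher, as were RNU1-1 (2.09) and RNU1-2 (3.24). DESeq2 did not call RNVU1-17 (adjusted p = 0.165), RNVU1-31 (0.0562) or RNVU1-28 (0.0549). The call was lost without TRiC input 2 for RNVU1-3 (adjusted p = 0.0823) and RNVU1-15 (0.116), and without TRiC pulldown 1 for RNVU1-15 (0.73, adjusted p = 0.402) and RNU1-1 (1.2, adjusted p = 0.302). Over single libraries left out, RNVU1-17 ran from 1.8 to 5.1, RNVU1-29 from 2.5 to 5.59, RNVU1-3 from 2.28 to 4.52, RNVU1-28 from 1.97 to 4.43 and RNVU1-31 from 1.85 to 4.21. RNVU1-29 has the sequence of RNU1-1 and no unique window, so its share of the counts is uncertain. Its TRiC inputs, with 47 and 6 counts, would not alone have met the filter on low counts. With at least 10 counts in every TRiC library, 13 of 16 annotated genes of all classes were higher. RNVU1-29, RNVU1-3 and RNU1-2 were not among those 13, so their p is not read as support. RNVU1-8 did not pass the test (1.19, edgeR adjusted p = 0.133) but passed with the replicate block (1.42, adjusted p = 0.0429). Its value was 2.68 without TRiC input 1 and 0.46 without TRiC input 2. RNVU1-1 did not pass (1.10, edgeR adjusted p = 0.270), with 3.14 without TRiC input 1 and 0.27 without TRiC input 2. RNVU1-2 (−0.10, adjusted p = 0.946) and RNVU1-34 (−1.19, adjusted p = 0.564) did not pass either, and their signs turned when single libraries were left out. RNVU1-27, with 7, 1, 27 and 22 counts, did not pass either (2.55, edgeR adjusted p = 0.0818). RNU1-3 had 8, 6, 11 and 0 counts and was not tested.

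Sequences of 4 U1 copies and the reference gene are shown because they span the range of response. Capitals mark ACTTACCTG within the first 14 bases, the letters that pair with the 5′ splice site, and the Sm site, searched as ATTTNTG or ATTTTTTG on the gene's own strand only:
RNU1-1: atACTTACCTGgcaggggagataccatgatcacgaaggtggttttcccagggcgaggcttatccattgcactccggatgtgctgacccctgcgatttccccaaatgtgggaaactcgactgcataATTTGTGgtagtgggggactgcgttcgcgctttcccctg
RNU1-89P: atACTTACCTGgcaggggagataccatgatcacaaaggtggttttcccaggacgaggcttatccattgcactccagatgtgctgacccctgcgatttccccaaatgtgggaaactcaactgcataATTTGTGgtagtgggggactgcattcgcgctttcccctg
RNU1-67P: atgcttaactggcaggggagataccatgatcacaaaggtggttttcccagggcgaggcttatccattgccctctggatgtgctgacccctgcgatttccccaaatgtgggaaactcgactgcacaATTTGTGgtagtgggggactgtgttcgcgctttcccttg
RNU1-77P: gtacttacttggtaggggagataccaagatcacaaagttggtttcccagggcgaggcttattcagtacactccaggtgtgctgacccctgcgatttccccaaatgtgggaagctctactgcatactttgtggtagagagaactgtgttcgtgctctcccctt
RNU1-130P: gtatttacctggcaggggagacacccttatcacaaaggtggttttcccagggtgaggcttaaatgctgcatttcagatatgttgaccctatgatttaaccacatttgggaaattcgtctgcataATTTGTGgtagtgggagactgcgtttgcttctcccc
RNU1-1 lies at chr1:16514122-16514285 (minus strand), RNU1-89P at chr4:135995929-135996092 (minus) and RNU1-130P at chr1:96225901-96226060 (plus), each in no other gene. RNU1-67P lies at chrX:119423742-119423905 (plus) in an intron of SLC25A43, and RNU1-77P at chr15:82174224-82174385 (minus) in an intron of EFL1, both on the strand of the host gene.

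RNU1-77P had 16 and 0 counts before and 271 and 146 after the TRiC pulldown; its log2 fold change was 4.62 (SE 0.61, edgeR adjusted p = 7.50e-05; DESeq2 adjusted p = 0.170). It was nearly absent in PFD cells, with 1, 6, 1 and 0 counts. RNU1-89P, 97.0% identical to RNU1-1, had 43 and 5 counts in the TRiC inputs and 334 and 268 in the pulldowns (log2 fold change 3.61, SE 0.47, edgeR adjusted p = 6.80e-05; 2.73 to 5.95 over single libraries left out). RNU1-56P, with 7, 0, 49 and 38 counts, had a log2 fold change of 3.55 (SE 0.94, edgeR adjusted p = 0.0128). Without TRiC input 2 its call was lost (2.54), and over single libraries left out it ran from 2.54 to 8.47 and RNU1-77P from 3.59 to 10.7. The inputs of RNU1-77P, RNU1-89P and RNU1-56P would not alone have met the filter on low counts. Their pulldowns let them in, so their direction was favoured by that choice and their p is not read as support. In the other direction, RNU1-130P went from 416 and 199 counts to 104 and 75 (log2 fold change −1.82, SE 0.31, edgeR adjusted p = 6.68e-04; −1.09 and 0.0427 without TRiC input 1) and was the only U1 member called lower.

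What the U1 members share was described without a test. Of the 13 tested members at least 95% identical to RNU1-1, 10 were higher (median log2 fold change 2.55). Of the 45 less similar ones, 21 were higher (median 1.54). Over all genes tested the shares were 8.64% higher and 10.6% lower. The counts here include members that passed the filter on low counts only through their pulldowns. Several of the 13 have the sequence of RNU1-1 and no unique window, so their calls are not separate measurements. No difference between these sets is read from the counts. Members with the ACTTACCTG letters gave 12 higher of 21 tested and those without gave 19 of 37, and the letters occur in 25 of the 66 members and in 33.6% of all 143 U1 genes of the symbol rule. The Sm letters were found in 55 of the 66 members and in 64.3% of the 143 genes. Both motifs are thus present and absent among members that were called higher, where 19 lacked the ACTTACCTG letters and 6 lacked the Sm letters.

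Members of U2 were all copies. Of 20, 17 were tested and 6 were higher, none lower, with a median log2 fold change of 2.04. With at least 10 counts in every TRiC library 3 of 6 were higher, and the median was 1.0. RNU2-7P, a copy within an intron of IFT88, went from 38 and 17 counts to 433 and 221 (log2 fold change 3.51, SE 0.34, edgeR adjusted p = 3.07e-06; 4.29 without TRiC input 1). RNU2-33P, within an intron of GSKIP, went from 0 and 10 counts to 98 and 71 (log2 fold change 4.05, SE 0.75, edgeR adjusted p = 0.00137). DESeq2 did not call it (adjusted p = 0.143), and it ran from 3.13 to 9.37 over single libraries left out. Its inputs would not alone have met the filter on low counts, so its direction was favoured by that choice and its p is not read as support. RNU2-6P, the most counted U2 copy, had 2.78 and 1.01 CPM in the inputs and 5.29 and 3.22 CPM in the pulldowns, and did not pass (log2 fold change 1.18, SE 0.42, edgeR adjusted p = 0.0569). It passed with the replicate block (edgeR adjusted p = 0.00754), library totals (0.0309), no filter (0.0163) and at least 10 counts in every library (0.0296). DESeq2 (0.0863), the joint fit (0.945) and the test against 1.5-fold (0.534) did not call it. Its log2 fold change was 2.09 without TRiC input 1 and 1.5 without TRiC pulldown 2. It was 0.62 without TRiC input 2 and 0.77 without TRiC pulldown 1.

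All 3 annotated U5 genes had both TRiC pulldowns above both inputs, and 1 of them passed the test. In TRiC cells RNU5A-1 went from 15.5 and 11.2 CPM to 41.1 and 34.1 CPM, with a log2 fold change of 1.5 (SE 0.15, edgeR adjusted p = 5.34e-06). RNU5B-1 stood at 18.0 and 17.0 CPM and at 24.0 and 18.6 CPM, a log2 fold change of 0.29 (SE 0.15) that did not pass (edgeR adjusted p = 0.189). Over single libraries left out it ran from 0.09 to 0.47, and it passed without TRiC pulldown 2 (0.47, adjusted p = 0.0263). The difference between these genes was not itself tested. The copies RNU5E-4P (1.05) and RNU5A-8P (1.68) were higher, and RNU5D-1, with 4, 7, 14 and 10 counts, did not pass (1.10, edgeR adjusted p = 0.484). In all, 3 of the 8 tested U5 members were higher and none lower.

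U6, made by another polymerase and bound by other proteins, showed the smallest median of the 5 major classes. Of 64 members 36 were tested, with 5 higher, 3 lower and a median log2 fold change of 0.24. The share higher was 13.9%, and of all genes tested 8.64% were higher and 10.6% lower, so these counts lie near the shares over all genes. With at least 10 counts in every TRiC library there were 4 higher and 2 lower of 22, with a median of 0.27. With no filter the sign of the median turned, to −0.66 over 62 members, of which 25 were above 0. The summed level of the class was 60.6 ± 23.5 CPM in the inputs (mean ± SD, n = 2) and 59.8 ± 2.90 CPM in the pulldowns, whereas the sum of the U4 members went from 848 ± 12.7 to 3320 ± 714 CPM. The difference between classes was not tested. RNU6-1323P, in no other gene, went from 100 and 45 counts to 20 and 15 (−2.08, edgeR adjusted p = 0.0129), a call lost without TRiC input 1 (−1.29, adjusted p = 0.360). RNU6-115P, within an intron of MACROD2, fell from 37 and 65 counts to 14 and 8 (−2.22, edgeR adjusted p = 0.0205), a call lost without TRiC input 2 (−1.83, adjusted p = 0.228) or TRiC pulldown 2 (0.0546). RNU6-432P, the most counted U6 member, fell from 12.6 and 4.68 CPM to 3.0 and 4.75 CPM (−1.16, edgeR adjusted p = 0.0273); its groups overlap, and without TRiC input 1 the value was −0.26 (adjusted p = 0.744). The fifth member called lower was the U7 copy RNU7-147P, with 42 and 11 counts in the TRiC inputs, 3 and 0 in the pulldowns (edgeR adjusted p = 0.0223) and 0 in all 4 PFD libraries. It met the filter on low counts only through its inputs, so its direction was favoured by that choice and its p is not read as support. Its call was lost without TRiC input 1 (−2.76, adjusted p = 0.303) and without TRiC pulldown 2 (−3.3, adjusted p = 0.0754), and over single libraries left out it ran from −7.7 to −2.76. Without TRiC input 1, 2 of the 5 lower calls remained.

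**Figure D2:**
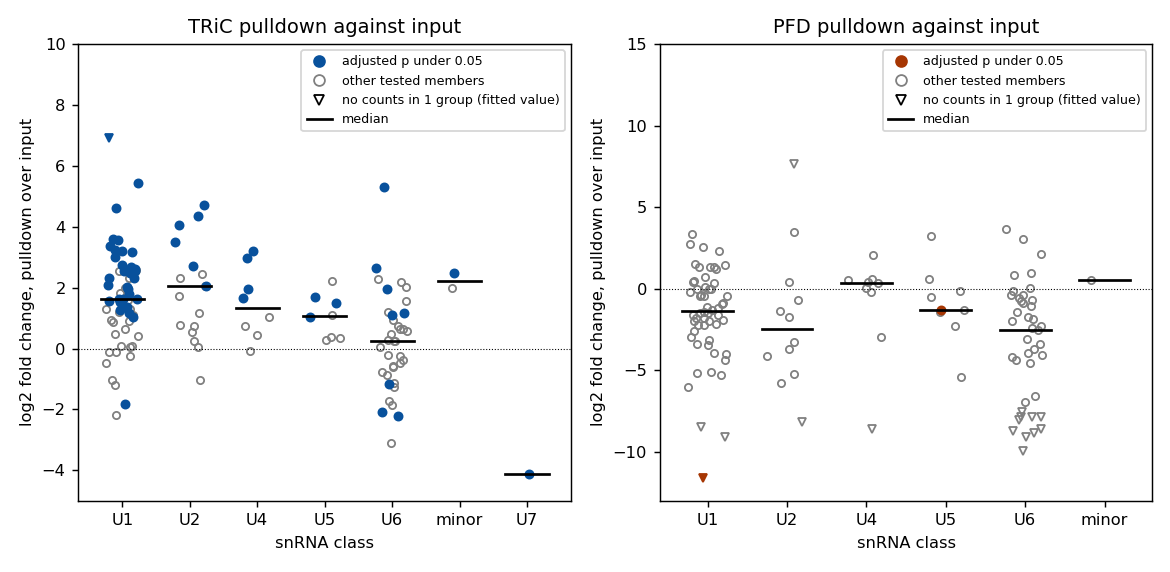
Log2 fold change of each tested member, pulldown over input, by snRNA class, for TRiC (left) and PFD (right); filled symbols passed an adjusted p of 0.05, bars are class medians, and triangles mark members with no counts in 1 of the groups, whose fitted value is not a measured fold. In TRiC the U1 median is 1.62 and the U6 median 0.24; in PFD these are −1.37 and −2.52, and 2 members passed. With at least 10 counts in every PFD library the PFD medians are −0.33 over 24 U1 members and −1.45 over 5 U6 members.

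Where a member lies was given beside these counts because reads from a host gene can fall on it. Of the 175 members 82 lay in no other gene, 51 within a gene on its strand and 42 opposite a gene. Of those in no other gene 65 were tested in TRiC, with 29 higher and 3 lower and a median log2 fold change of 1.54. With at least 10 counts in every TRiC library 21 of 37 were higher and 2 lower, with a median of 1.32. Of all genes tested 8.64% were higher and 10.6% lower. The other counts in this paragraph include members let in only by their pulldowns. The tested members within a gene gave 15 higher of 39 (median 1.17), and those opposite a gene gave 6 of 26 (median 0.92). Sequence uniqueness was described in the same way. Of 29 tested members with under 50% of their 28-base windows unique, 14 were higher, and of 101 with at least 50%, 36 were. Across the 58 tested U1 members the share of unique windows and the log2 fold change had a Pearson r of −0.21 (Spearman rho −0.26). Across 36 U6 members r was −0.41 (rho −0.34). Across 17 U2 members the sign was the other way, with r at 0.19 (rho 0.36). These are descriptions across genes that share libraries and sequence, and genes are not independent replicates.

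**Figure D3:**
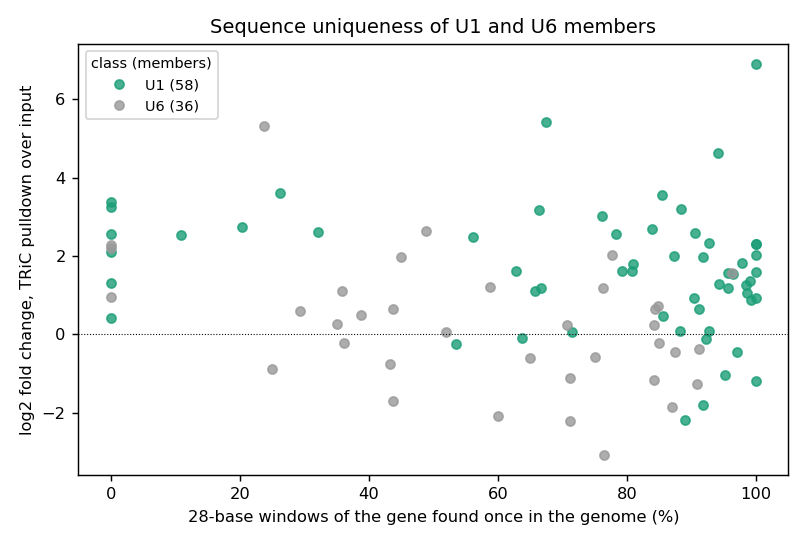
Share of a gene's 28-base windows that occur once in the genome (x axis, %) against the log2 fold change in the TRiC pulldown (y axis) for the 58 U1 and 36 U6 members tested. Points above 0 are found from 0% to 100% unique windows, and the weak negative slopes are those of r = −0.21 (U1) and −0.41 (U6). U2 members, not drawn, gave r = 0.19.

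Other small non-coding RNAs measured in the same way were set beside the snRNAs. Of 942 snoRNA genes 100 were tested in TRiC, with 53 higher, 1 lower and a median log2 fold change of 1.44, against 8.64% and 10.6% of all genes. Of 49 scaRNA genes, which guide modification of snRNAs, 10 were tested, with 6 higher, none lower and a median of 1.69. No test of a difference between these groups was run, and nothing here is read as particular to snRNAs.

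The same question was asked of PFD. In the PFD pulldown no member was higher and 2 were lower by edgeR's adjusted p, out of 128 tested (1 of the 2, RNU1-138P, was tested only through its inputs), while 0.0496% of all 14111 genes tested were higher and 0.191% lower. An unadjusted p under 0.05 was reached by 35 members and by 6.93% of all genes, and DESeq2 called 1 higher and 23 lower. No share over all genes is given for DESeq2, so its counts are not read as a result about snRNAs. Both PFD pulldowns stood below both inputs for 70 members (20.3% of all genes) and above them for 15 (17.9%). The median log2 fold change was −1.46 over the 128 members, with 33 above 0 (49.9% of all genes). Members that passed the filter on low counts only through high inputs are counted below 0 by that choice. The counts of 35, 70 and 33 and this median therefore support nothing. Among the 41 members with at least 10 counts in every PFD library the median was −0.16, with 2 higher and 2 lower, against 0.0908% and 0.345% of all genes so filtered. A total of 28 members had 0 counts in both PFD pulldowns, 15 of them with at least 10 counts in each PFD input. The spread between replicates was far wider in PFD cells, with a common dispersion of 0.331 against 0.0153 in TRiC cells, and PFD pulldown 1 was the shallowest library. Lower calls rose in number without PFD pulldown 1 or PFD pulldown 2, and higher calls appeared whichever library was left out. No share over all genes is given beside these changes.

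RNU5A-1 had the smallest adjusted p of the members in PFD. It stood at 473 and 377 CPM in the PFD inputs and at 179 and 166 CPM in the PFD pulldowns, with a log2 fold change of −1.29 (SE 0.14, edgeR adjusted p = 0.0185). The call was lost when the change was tested against 1.5-fold (adjusted p = 0.0850). Its level in the PFD inputs was 31.7-fold that in the TRiC inputs, whereas RNU5B-1 was at 29.7 and 20.7 CPM in the PFD inputs, 1.44-fold its TRiC input level. Inputs of the 2 lines were made from different clones and deposited in separate tables, so the line, the clone and the table cannot be told apart in this ratio. RNU5A-1 lies opposite an intron of PARP16, and RNU5B-1 in no other gene. RNU5B-1 itself stood at 18.2 and 26.5 CPM in the PFD pulldowns (log2 fold change −0.16, SE 0.39, edgeR adjusted p = 0.979; −0.41 to 0.1 over single libraries left out).

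The other lower call was RNU1-138P, with 506 and 205 counts in the PFD inputs and 0 in both PFD pulldowns. It was at least 107-fold lower in the pulldown (floor of 3 counts per library; edgeR adjusted p = 0.0202), and it also had 0 counts in all 4 TRiC libraries. It met the count rule and the filter on low counts only through the PFD inputs, so its direction was fixed by that choice and its p supports nothing. RNU1-138P lies opposite an exon of CAMK2D. The same pattern of counts in the PFD inputs alone was seen for RNU1-82P (69 and 47 counts, opposite an exon of WEE2-AS1), RNU6-105P (73 and 21, opposite an exon of ZNF638) and RNU6-682P (34 and 18, in no other gene). These 4 are the only members with 0 counts in all TRiC libraries. Whether reads of the opposite gene contribute to them was not tested. The strand counted is not given, and whether it was the same in every library was not tested. Among the 62 tested members in no other gene none was called in either direction.

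The U4 genes had wide errors in PFD. RNU4-2 stood at 1260 and 1540 CPM in the inputs and at 961 and 1890 CPM in the pulldowns, so that the groups overlapped (log2 fold change 0.03, SE 0.25, edgeR adjusted p = 0.997). Without PFD pulldown 2 its value was −0.49 (adjusted p = 0.0219), so the sign rests on single libraries. RNU4-1 stood at 24.4 and 18.9 CPM and at 57.2 and 122 CPM, both pulldowns above both inputs, but did not pass (log2 fold change 2.05, SE 0.36, edgeR adjusted p = 0.139). It passed with at least 10 counts in every library (0.0122), no filter (5.35e-11), the replicate block (2.37e-07), the joint fit (0.0466) and DESeq2 (6.62e-07). It did not pass with library totals (0.151), TMM from protein-coding genes (0.144) or the test against 1.5-fold (0.308). Over single libraries left out its value ran from 1.45 to 2.46. RNU4ATAC stood at 23.4 and 15.9 CPM and at 26.1 and 30.7 CPM (0.54, SE 0.37, edgeR adjusted p = 0.873). RNVU1-22 stood at 36.6 and 17.8 CPM and at 227 and 82.6 CPM (2.53, SE 0.52, edgeR adjusted p = 0.272). It passed with at least 10 counts in every library (0.0122), no filter (9.2e-27) and the replicate block (2.67e-18). It did not pass with DESeq2 (0.0610), the joint fit (0.165) or library totals (0.258). TMM from protein-coding genes (0.268) and the test against 1.5-fold (0.442) did not call it either. Over single libraries left out its value ran from 1.57 to 3.12. RNU1-67P stood at 159 and 76.1 CPM and at 127 and 70.1 CPM (−0.23, SE 0.39, edgeR adjusted p = 0.970).

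Sums over the classes described the same libraries without a test. In TRiC cells the U2 members summed to 9.17 ± 5.14 CPM before and 34.6 ± 5.80 CPM after the pulldown, and in PFD cells to 54.0 ± 22.1 and 15.3 ± 4.31 CPM (mean ± SD, n = 2). U6 summed to 157 ± 48.1 CPM in the PFD inputs and 50.8 ± 20.2 in the PFD pulldowns. U1 summed to 181 ± 132 and 536 ± 60.1 CPM in TRiC cells and to 534 ± 262 and 511 ± 218 CPM in PFD cells. U4 and U1 had overlapping groups in PFD, whereas U2, U5 and U6 had both PFD pulldowns below both inputs. RNU5A-1 made up most of the U5 sum in PFD, and without it the U5 sum was 61.9 and 40.1 CPM in the inputs and 40.4 and 45.3 CPM in the pulldowns, so that the groups overlapped. The minor class went the other way, from 25.9 and 16.1 CPM to 26.1 and 31.1 CPM.

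Whether enrichment differed between the chaperones was tested directly, as TRiC pulldown over input minus PFD pulldown over input on the log2 scale, over all 8 libraries. Of 168 members tested 1 was higher (0.0212% of all 18855 genes tested) and none lower (0.0159%) by edgeR's adjusted p. At an unadjusted p under 0.05 there were 59 members, where 14.8% of all genes passed, and DESeq2 called 32 higher and 1 lower. Members that passed the filter only through a high group are among these, so these counts support nothing. With at least 10 counts in every library 36 members had a value, and edgeR called 1 higher and none lower. The single call was RNU5A-1, with a difference of 2.80 (SE 0.25, edgeR adjusted p = 0.0168), from the fold changes of 1.5 and −1.29 given above. It kept its direction in every alternative run, but did not pass with a replicate block (adjusted p = 0.0957), nor without TRiC input 2 (0.0654), TRiC pulldown 1 (0.152), TRiC pulldown 2 (0.0962), PFD input 1 (0.202) or PFD input 2 (0.214). The number of higher calls rose without PFD pulldown 1 or PFD pulldown 2, with no share over all genes given beside it. RNU4-2 (1.92, SE 0.40, adjusted p = 0.155), RNU4-1 (1.16, SE 0.44, adjusted p = 0.299) and RNU4ATAC (1.95, SE 0.33, adjusted p = 0.120) did not pass edgeR's test of the difference.

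Of the 100 members tested in both lines, 53 were above 0 in TRiC and below 0 in PFD, 27 were above 0 in both, 17 below 0 in both, and 3 below 0 in TRiC and above 0 in PFD. Of all 13749 genes tested in both lines these shares were 22.7%, 22.6%, 27.5% and 27.2%. Members that passed the PFD filter only through high inputs are counted below 0 by that choice, so the count of 53 supports nothing. Of the 36 members with at least 10 counts in every library of both lines, 15 were above 0 in TRiC and below 0 in PFD, 16 above 0 in both, 5 below 0 in both and 0 the reverse, where all 10937 genes so filtered gave 21.6%, 23.1%, 27.5% and 27.8%. Of the 50 members called higher in TRiC 41 were tested in PFD, where 16 had a log2 fold change above 0. Among these 41, 17 had both PFD pulldowns below both inputs and 10 had them above, which held for 20.3% and 17.9% of all genes tested in PFD. The same limit holds for the counts of 16 and 17.

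**Figure D4:**
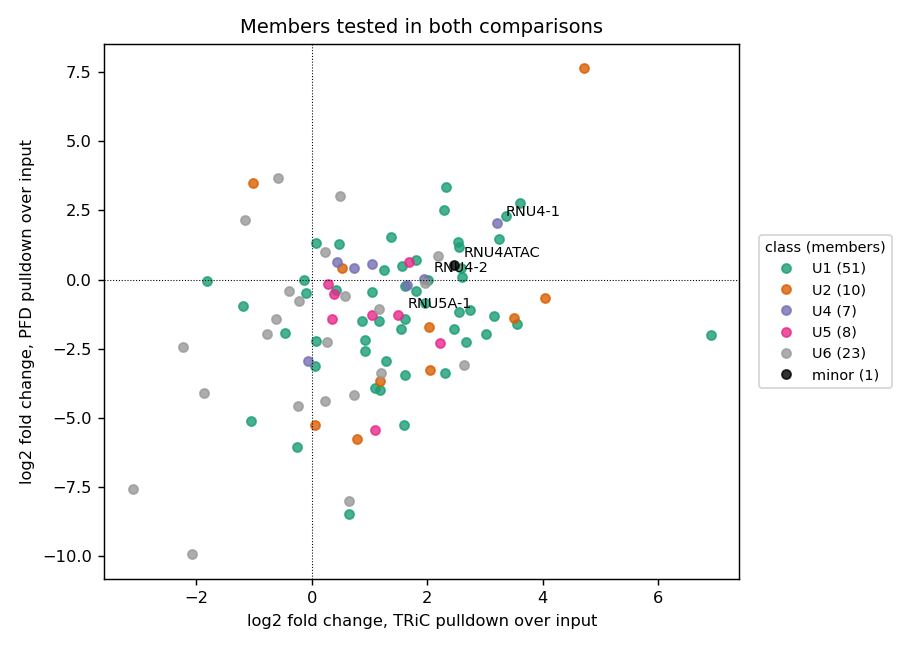
Log2 fold change of the 100 members tested in both lines, TRiC pulldown over input (x axis) against PFD pulldown over input (y axis), coloured by class. The lower right quadrant holds 53 members, among them RNU5A-1 at 1.5 and −1.29, and the upper right holds 27, among them RNU4-1 at 3.21 and 2.05.

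The proteins of the same particles are translated, and their mRNAs were read from the same tables as the other genes of the pathway. Of 72 genes for snRNP proteins and their assembly factors, the TRiC pulldown held 2 at a higher and 25 at a lower level than the input, with a median log2 fold change of −0.25, where 8.64% and 10.6% of all genes tested were higher and lower. SNRPD3, a Sm ring protein (0.94, SE 0.29, edgeR adjusted p = 0.0284), and RNPC3, a protein of the minor spliceosome (0.53, SE 0.15, edgeR adjusted p = 0.0187), were higher. The lowest were the Sm ring protein SNRPG (−0.70, edgeR adjusted p = 0.00416), LSM7 of the LSm ring that binds U6 (−0.68, adjusted p = 2.46e-04) and the U1 protein SNRPC (−0.56, adjusted p = 5.29e-04). By role, all 3 U1 proteins, 5 of 12 U2 proteins, 6 of 11 U5 and tri-snRNP proteins, 3 of 7 LSm proteins, 4 of 8 Sm proteins, 1 of 5 U4/U6 proteins, 2 of 8 minor spliceosome proteins, 1 of 16 assembly factors and 0 of 2 U7 proteins were lower. The 2 higher genes were 1 of the Sm and 1 of the minor spliceosome proteins. The count of lower proteins was 8 without TRiC input 1 and 16 without TRiC input 2. The count of higher proteins fell to none without TRiC input 1 or TRiC pulldown 2. In the PFD pulldown none of the 72 passed the adjusted p of edgeR or of DESeq2, 5 had an unadjusted edgeR p under 0.05 (6.93% of all genes), and the median was −0.03.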

How the data were processed

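The deposited unit was counts: per the methods, the authors trimmed and demultiplexed reads, handled unique molecular identifiers with UMI-tools, removed reads matching a non-coding RNA library with Bowtie2 2.4.2, aligned the rest to hg38 with STAR 2.7.10a (unique alignments only) and counted reads per gene. The annotation release and the strand counted are not given in the sources used here. Of 60664 gene identifiers, 60463 matched GENCODE 44, which supplied symbols, types and positions.

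Raw counts of each line were fitted with edgeR 4.0.16 (R 4.3.3; TMM scaling, filterByExpr, quasi-likelihood test, Benjamini-Hochberg over all genes tested), and the difference between lines over all 8 libraries. CPM used TMM factors over the 8 libraries. DESeq2 1.42.0 and the other alternatives are in the closing section. The procedure was tested on simulated data, and the outcome is not reported here. No label says whether a pulldown and the input of the same number are paired. The main fits did not pair them, and the replicate block is an alternative that does. With 2 replicates a group, p-values measure the spread between those samples. Alignment identity used Biopython 1.88.

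The members and lists were chosen with earlier results of these data known. Values were given for annotated genes, the most counted member of each class, the 5 highest and 5 lowest called members (mean count 20 or more, both same-numbered pairs moving alike), 4 members known from an earlier account, and the 3 highest and lowest called protein genes; annotated genes under that mean count were given where the text needed them, and other members named were chosen after their values were seen. Members that lie in another gene, or opposite one, may share its reads. Some sequences are not reported here.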

Additional observations from a re-analysis of the deposited data

Results flagged for a closer look

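RNU5A-1 moved in opposite directions in the 2 lines. The difference between TRiC enrichment and PFD enrichment was 2.80 on the log2 scale (SE 0.25, edgeR adjusted p = 0.0168), with all 4 TRiC libraries in the order pulldown above input and all 4 PFD libraries in the order pulldown below input. Leaving out single libraries gave 2.58 to 3.06. The call was lost with the replicate block (adjusted p = 0.0957) and in 5 of the 8 fits without a single library (adjusted p of 0.0654 to 0.214).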

How the results depend on the processing

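The 50 higher calls in the TRiC pulldown kept their sign in every alternative that gave a value. Higher calls numbered 3 when both lines were fitted jointly, 25 in a test of changes beyond 1.5-fold, 29 over members in no other gene (chosen after seeing the data) and 31 to 57 when single libraries were left out, with 31 to 47 of the 50 kept. Lower calls, 5 in all, numbered 3 with at least 10 counts in every library, 0 in the joint fit, 1 beyond 1.5-fold, 3 in no other gene and 2 to 7 without single libraries, with 2 to 4 of the 5 kept. In the PFD pulldown, higher calls were 2 with the replicate block, 1 with DESeq2, 2 with no filter, 2 with at least 10 counts in every library, 1 in the joint fit and 1 to 4 without single libraries. Lower calls were 23 with DESeq2, 4 with no filter, 1 beyond 1.5-fold, 0 in no other gene and 2 to 16 without single libraries. For the difference between lines, higher calls were 0 with the replicate block, 32 with DESeq2, 13 with no filter, 0 in no other gene and 0 to 32 without single libraries, and lower calls were 1 with DESeq2 and 0 to 2 without single libraries. For the snRNP proteins, leaving out single libraries gave 0 to 2 higher and 8 to 26 lower in TRiC, and 0 to 2 higher and 0 to 5 lower in PFD. Among the named results, signs turned for RNVU1-34 in TRiC (2.36 without input 1; −3.64 to 2.36 over single libraries), RNVU1-2 in TRiC (0.11 without input 2, 0.09 without pulldown 1; −0.29 to 0.11), RNU4-2 in PFD (−0.04 with the block, −0.00356 with library totals, −0.13 without input 1, −0.49 without pulldown 2; −0.49 to 0.41) and RNU1-67P in PFD (0.37 without input 1, 0.16 without pulldown 2; −0.77 to 0.37). RNU5B-1 in PFD, not counted below, also turned (0.05 without pulldown 1, 0.1 without input 1). Of 468 alternative values for the 40 named results, 387 kept direction and side of the threshold, 59 lost significance, 13 gained it and 9 reversed. The causes were not tested. Shares over all genes are not given in this section, so none of its alternative counts is read as a result about the members. Same-numbered samples deviated together with a correlation of 0.129 in TRiC and −0.069 in PFD, and the replicate block gave 53 higher and 6 lower members in TRiC and 3 lower in PFD.

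There were 2 replicates a group and 9523128 counts in the shallowest library, and repeated sequence limits which copy a read is assigned to.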
